A study of Mus musculus with 18 samples.

Results

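The 47 antiviral interferon-stimulated genes described here were taken from the table by gene symbol, not by their values, and all 47 symbols were found among the 24411 symbols of the table. All 47 also passed the filter of 1 TPM or more in at least 3 libraries and were among the 11548 genes tested. Genes near 0 TPM at rest, such as Mx1, passed it through their M1 level. By RefSeq positions the 47 lie on 15 chromosomes, and 19 of them form 7 clusters with neighbours within 500 kb.

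Type I and type II interferons act through JAK kinases and STAT transcription factors to switch on a shared set of genes that restrict viruses. The products of these interferon-stimulated genes sense foreign RNA and DNA, degrade or edit it, block its translation, or feed back on the interferon receptors. In macrophages the programme is set off both by added interferon and by bacterial lipopolysaccharide (LPS), which makes the cells produce interferon beta.

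RNA sequencing was done on RAW264.7, a line of mouse macrophage-like cells, to follow how loss of Kdm7a, a Jumonji histone demethylase, alters macrophage polarization. The 6 groups had 3 libraries each and were sampled after 48 h. They were knockout (KO) cells, made deficient in Kdm7a with CRISPR/Cas9, under M1 conditions, control guide RNA cells under M1 conditions, KO and control cells under M2 conditions, and KO and control cells left unstimulated (M0). M1 cells received mouse interferon gamma at 2 ng/ml with LPS at 0.1 µg/ml. M2 cells received human TGF-β1 at 2 ng/ml and 3 mouse interleukins, IL-4, IL-10 plus IL-13, each at 20 ng/ml, so no interferon was added to them. The labels name 1 KO line and 1 control line, so differences between the lines that do not come from Kdm7a cannot be told apart from the knockout. They do not say that libraries came from separate cultures, so p-values measure the spread between libraries, which may be technical. Values are the authors' TPM, a length-corrected share of a total that is the same in every library; sequencing depth is unknown, and a strong rise of some genes lowers all others.

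Kdm7a averaged 7.49 ± 0.263 TPM in KO and 29.7 ± 0.845 TPM in control M1 cells (SD, n = 3 each), 6.8 ± 0.879 TPM in KO and 23.3 ± 1.13 TPM in control M2 cells, and 3.37 ± 0.139 TPM in KO and 11.1 ± 0.174 TPM in control M0 cells. The transcript was thus lower but not absent in the KO line. All 8 macrophage markers listed were at 1 TPM or more in every group. Their summed level, much of it Lyz2, was lower in the KO line, at 2671 to 2779 TPM in KO and 3573 to 3706 TPM in control M1 libraries, 3729 to 3945 TPM in KO and 4585 to 4743 TPM in control M2 libraries, and 4306 to 4400 TPM in KO and 5441 to 5598 TPM in control M0 libraries. The markers did not all go one way. KO libraries lay below all control libraries for 7 of the 8 and above them for 1, Csf1r, under M1 and M0, and below for 2 and above for 2 under M2. Without Lyz2 the M2 sums overlapped, at 2631 to 2927 TPM in KO and 2596 to 2775 TPM in control libraries. The part of these differences in the results was not tested. The T cell, fibroblast and epithelial marker lists each summed to at most 1.82 TPM in any library, and of the B cell markers Ms4a1 was at 0. That highest sum was of the fibroblast list in KO M1 library 3, where Col1a2 was at 1.31 TPM. Cd79a stood at 19.6 to 21.2 TPM in KO M2 and 13.1 to 14.9 TPM in control M2 libraries, and at most at 2.54 TPM in the others, and its part in the M2 results was not tested.

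One pair of libraries stood apart. Nos2, Ptgs2, Il6, Ccl5, Cxcl2, Il1b and Lcn2, 7 genes largely limited to M1 cells, had a median level of 0.082% and 0.147% of their M1 level in control M2 libraries 1 and 2, against 0.0137% in control M2 library 3. In KO M2 libraries this trace was 0.0263% to 0.0416%, in KO M0 libraries 0.0188% to 0.0334%, and in control M0 libraries 0.00368% to 0.0188%. Genes with very high levels under M1 can be moved by such a trace, so the main M2 counts, and the M2 values of several named genes, are also given without control M2 libraries 1 and 2, a choice made after the data were seen. That leaves 1 control M2 library, 3, which is assumed to vary like the other groups: p-values and calls then rest on the spread within those groups, and a call can be lost because fewer libraries were tested. KO M0 library 1 had the lowest value of its group for 38 of the 47 genes.

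Promoter sequences show the DNA element through which a complex with STAT2 and IRF9 acts on many of these genes. The RefSeq promoter table (GRCm38.p6, 250 bases before to 50 after the start site) held 36 of the 47 genes; it did not match Dhx58, Zbp1, Ifi204, Usp18, Oas2, Mx1, Mx2, Parp9, Parp14, Rtp4 or Tor3a. An interferon-stimulated response element (ISRE), made of 2 copies of GAAA with any 2 bases between them and sought on both strands, overlapping matches included, was found in the promoters of 17 of the 36 genes, or 47.2%, and in those of 3.99% of the 27025 genes in the table. A gamma-activated site, written TTCNNNGAA and equal to its own reverse complement, was found in 7 of the 36, or 19.4%, and in 9.55% of all genes. Matches of the 2 motifs overlapped in the promoter of 1 of the genes. Because 76.6% of the genes had a promoter, under the 80% set as the minimum, these shares describe those 36 genes and are void as a check of the whole list. The sequences below are from genes that led the M1 response or fell in the knockout; they run 5′ to 3′ on the strand of the gene, with ISRE matches, in either direction, in capitals.
Rsad2, - strand, chr12:26456543-26456592: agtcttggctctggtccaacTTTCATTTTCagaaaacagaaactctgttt
Isg15, - strand, chr4:156200855-156200916: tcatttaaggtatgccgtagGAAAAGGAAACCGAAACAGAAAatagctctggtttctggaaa
Ifit1, + strand, chr19:34640765-34640833: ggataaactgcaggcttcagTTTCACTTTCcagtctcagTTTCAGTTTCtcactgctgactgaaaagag
Ifit3, + strand, chr19:34583353-34583436: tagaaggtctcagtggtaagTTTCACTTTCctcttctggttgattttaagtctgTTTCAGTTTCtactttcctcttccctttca
Oas1a, - strand, chr5:120907526-120907565: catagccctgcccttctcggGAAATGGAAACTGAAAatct
Oas1g, - strand, chr5:120887614-120887651: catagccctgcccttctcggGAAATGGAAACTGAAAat
Slfn5, + strand, chr11:82951927-82951976: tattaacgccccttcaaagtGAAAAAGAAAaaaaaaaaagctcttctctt
Ddx60, + strand, chr8:61928014-61928086: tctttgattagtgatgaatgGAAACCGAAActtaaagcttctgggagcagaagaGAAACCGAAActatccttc
Isg15 had 3 overlapping matches in 1 run, the first beginning 78 and the last 66 bases before the start site. Ifit1, Ifit3 and Ddx60 had 2 separate matches each. The windows of Oas1g and Oas1a were the same over all 38 bases compared. All windows shown lie before the start site that the promoter table uses. By RefSeq gene positions, those of Slfn5 and Ifit3 lie inside the gene, and those of Oas1a and Ddx60 reach into it. No transcripts were compared, so how well reads of Oas1g and Oas1a can be told apart was not tested. Slfn5 and Ddx60 carried the element and fell in KO M1 cells, whereas Oasl1, which fell most, had no match in its window. A match is a stretch of letters, and its absence says nothing of the factor.

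M1 stimulation raised all 47 genes in both lines. The summed level of the 47 was 34599 to 34932 TPM in KO M1 libraries and 35090 to 35763 TPM in control M1 libraries, against 1202 to 1349 TPM in KO M0 and 1240 to 1279 TPM in control M0 libraries. They thus made up 3.46% to 3.49% of all TPM in KO and 3.51% to 3.58% in control M1 cells. All 47 were called higher at a limma adjusted p below 0.05 in each line, where 32% of all tested genes were called higher and 58.4% lower in KO cells, and 32.2% higher and 56.9% lower in control cells.

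The size of the rise differed widely between genes. The log2 fold change of TPM + 1 was between 1.15 for Irf9 and 10.71 for Rsad2 in KO cells, with a median of 4.22 against -0.43 for all tested genes. In control cells it was between 1.42 for Irf9 and 10.74 for Rsad2, with a median of 4.40 against -0.38. Scaling by trimmed means moved the median of all genes in these responses to 0.06 in KO and 0.07 in control cells, and with it the median of the 47 to 4.80 and 4.93. As a ratio of mean TPM, the rise was 2.24-fold to 2426-fold in KO cells and 2.72-fold to 2514-fold in control cells, with medians of 19.6 and 22.2. Genes with a lower M0 level had larger ratios, with Spearman's rho of -0.82 in KO and -0.84 in control cells over 47 genes, a description in which the M0 level is part of both measures.

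**Figure D1:**
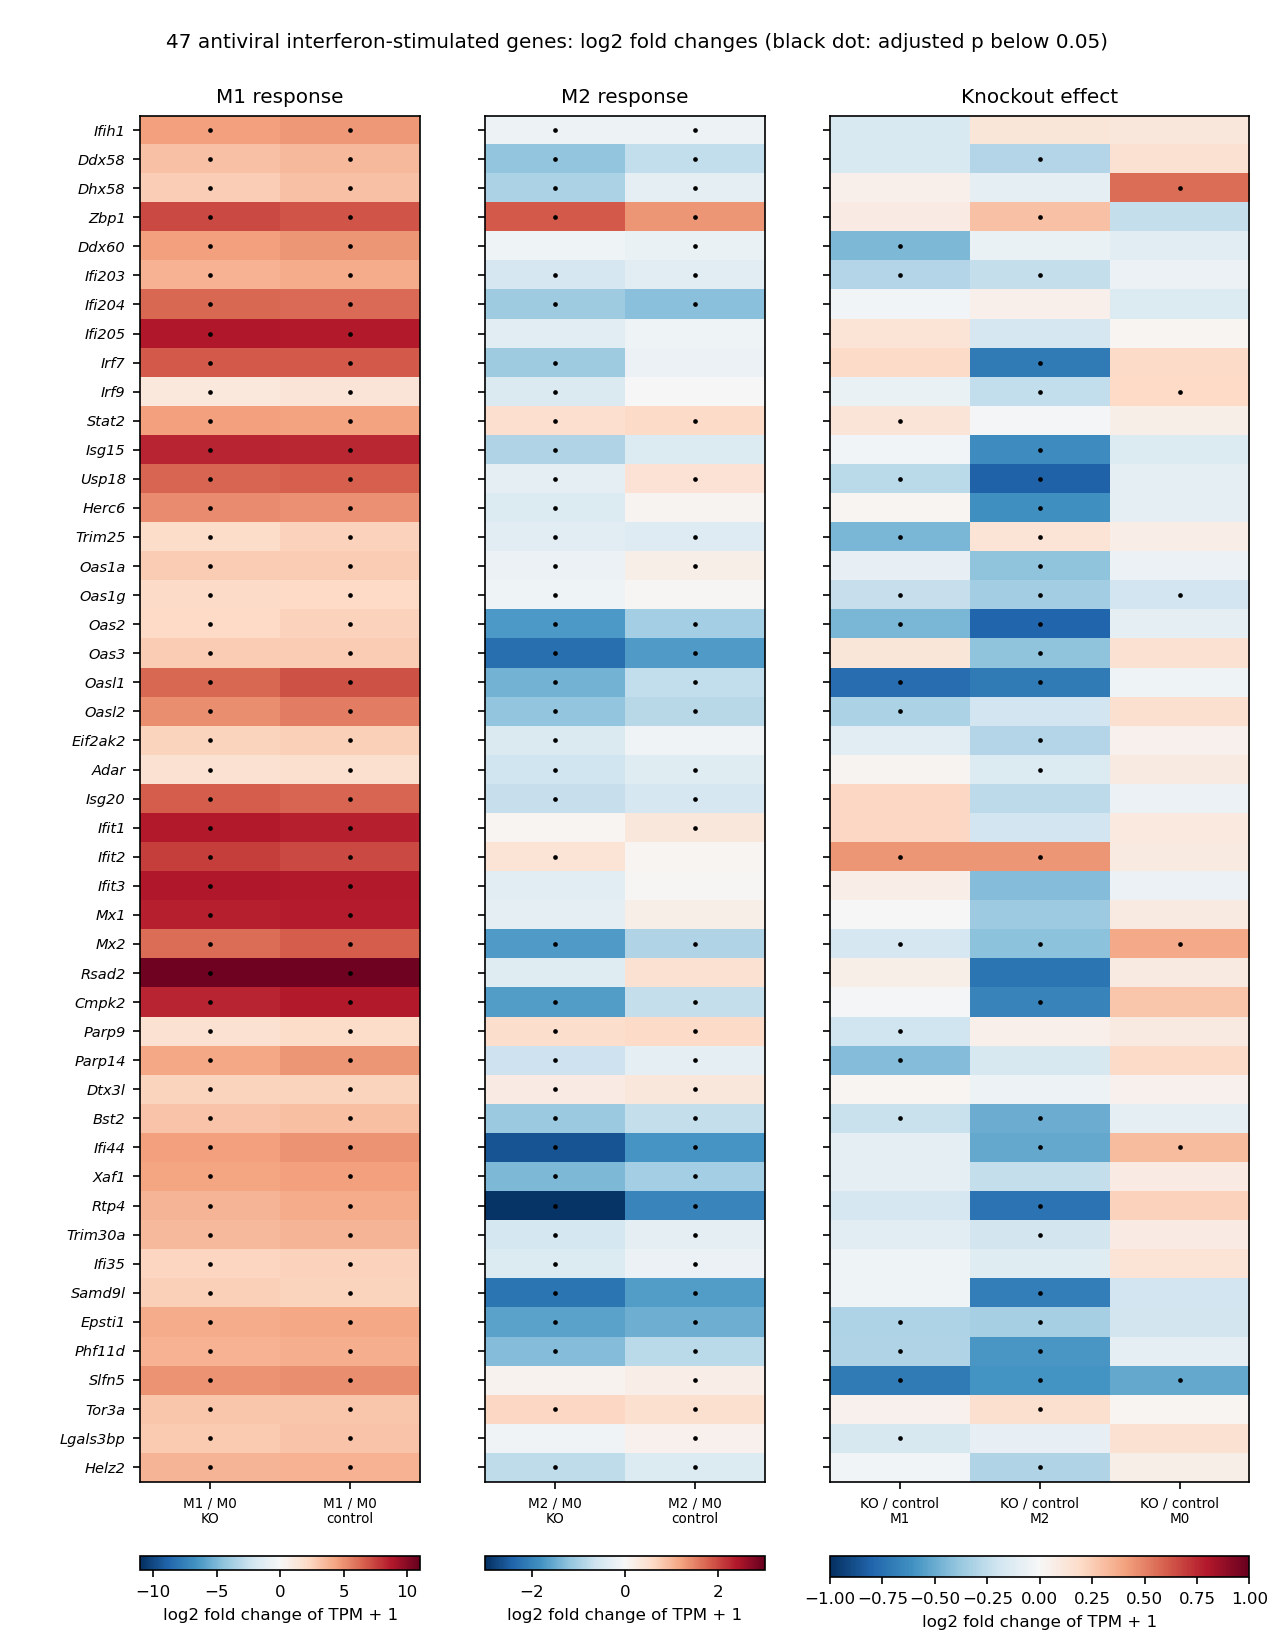
Heat map of log2 fold changes of TPM + 1 for the 47 genes (rows, grouped by role) in M1 against M0, M2 against M0 and KO against control cells (columns); each panel has its own colour scale and black dots mark adjusted p below 0.05. All 47 rows are red in both M1 columns, most are blue under M2, and the KO against control columns hold 18 dots under M1, 29 under M2 and 6 without stimulation.

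M2 conditions lowered most of the genes, more of them in KO cells. In KO cells 33 were called lower, 6 higher and 8 were not called, where 43.2% of all tested genes were called lower and 29.6% higher. In control cells 26 were called lower, 10 higher and 11 were not called, where 37% were called lower and 28.4% higher. Without control M2 libraries 1 and 2, 26 were lower and 6 higher in control cells, and 13 were higher without control M2 library 3. Of the genes called lower, 25 were shared, which is 75.8% of the 33 in KO cells and 96.2% of the 26 in control cells, with 24 shared when control M2 libraries 1 and 2 were left out. The share of all tested genes called lower under M2 in both lines was not computed. The median log2 fold change was -0.50 in KO cells, against -0.09 for all tested genes, and -0.26 in control cells, against -0.05. By group means, 39 genes in KO cells and 30 in control cells had the order M2 below M0 below M1, and the other 8 and 17 had M0 below M2 below M1. With control M2 library 3 alone, the control counts were 35 and 12.

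The knockout had small effects beside the M1 response. On the log2 scale of TPM + 1, no called effect reached 2-fold in any condition. Under M1, 2 of the 47 genes were called higher in KO cells, 16 lower and 29 were not called. The 34.0% called lower was close to the 33.4% of all tested genes called lower in that comparison, and 4.26% were called higher against 16.9% of all, so the count of lower genes does not set the list apart. KO libraries lay below all control libraries for 26 of the 47, or 55.3% against 38.5% of all genes, and above them for 9, or 19.1% against 21.6%. In a fit of the M1 libraries alone, 24 were called lower and 9 higher. The share of all tested genes called in that fit is not given here, so these counts do not set the list apart. Mean TPM in KO M1 cells was within 90% to 110% of the control level for 26 of the 47, with a median of 94.5%. The median log2 fold change was -0.08, against -0.06 for all tested genes. With trimmed-mean scaling these medians were -0.03 and -0.02. In bulk RNA, fewer responding cells and less RNA per cell cannot be told apart.

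Under M2, 25 genes were called lower in KO cells, 4 higher and 18 were not called. This was 53.2% lower against a background of 18.3%, and 8.51% higher against 12.7%. KO libraries lay below all control libraries for 23 genes, or 48.9% against 25.5% of all genes, and above them for 4, or 8.51% against 15.7%. The median log2 fold change was -0.29, against -0.03 for all tested genes, and the median KO level was 78.8% of control. Against the 1 control M2 library left without libraries 1 and 2, 17 genes were called lower and 3 higher, and 18 of the 29 calls were kept, with the spread taken from the other groups. With the trace of M1 genes subtracted from each library, another choice made after the data were seen, 23 were called lower and 5 higher. The shares of all tested genes called in these alternative fits are not given here.

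Without stimulation, 4 genes were called higher and 2 lower in KO cells, and 41 were not called. The background was 8.86% higher and 10.3% lower, against 8.51% and 4.26% of the 47. KO libraries lay above all control libraries for 9 genes, or 19.1% against 18.9% of all genes, and below them for 3, or 6.38% against 18.4%. The genes called were Dhx58, Mx2, Ifi44 and Irf9, which were higher, and Slfn5 and Oas1g, which were lower. Without KO M0 library 1, which held the lowest values, 9 were called higher and 2 lower. The shares of all tested genes called in that fit are not given here, so these counts do not set the list apart. Of the genes called lower under M1 and under M2, 10 were shared, 62.5% of the 16 and 40% of the 25: Bst2, Epsti1, Ifi203, Mx2, Oas1g, Oas2, Oasl1, Phf11d, Slfn5 and Usp18. Without control M2 libraries 1 and 2, all of these but Ifi203 were shared, 9 of 17 under M2. The share of all tested genes called lower in both conditions was not computed, so the 10 shared genes are a description only. Ifit2 was called higher in both conditions. Slfn5 and Oas1g were called lower in all 3 conditions.

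**Figure D2:**
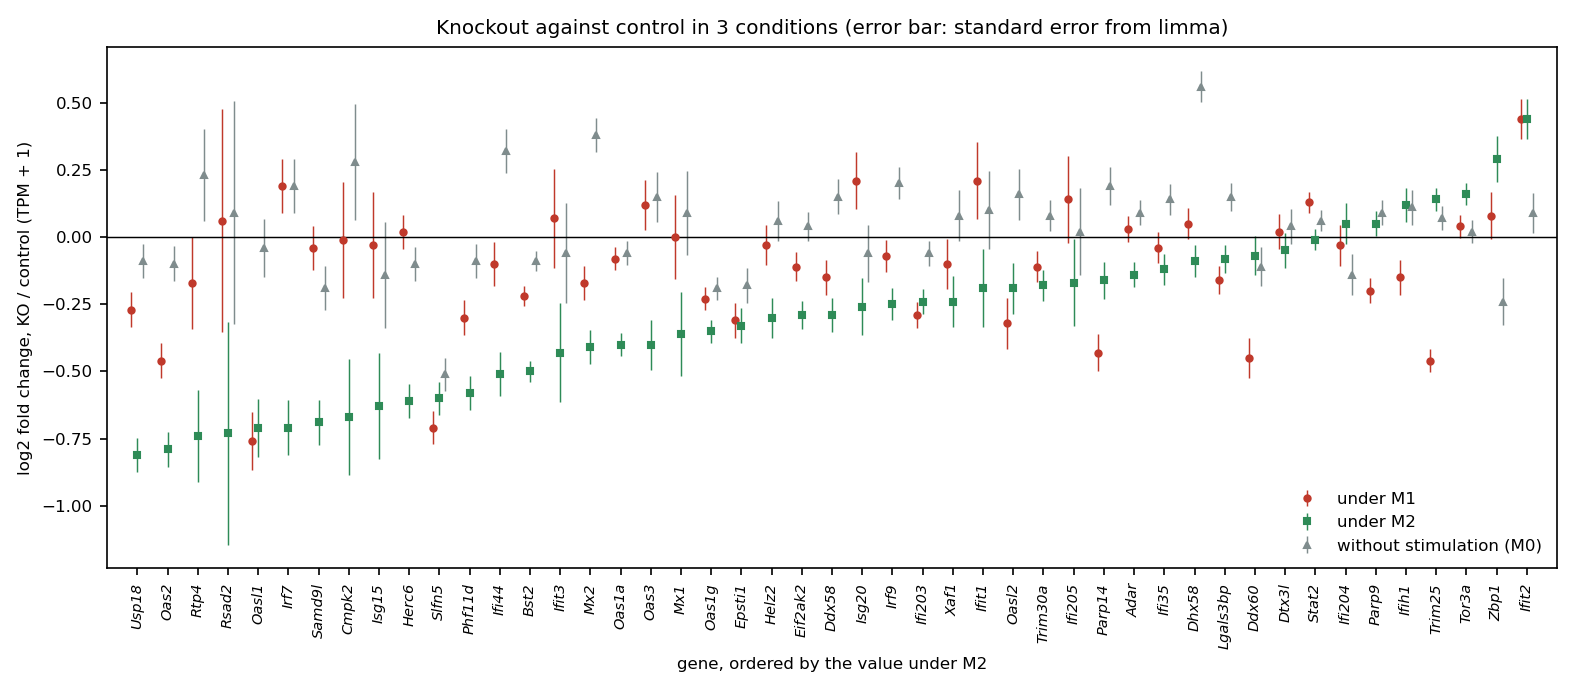
Log2 fold change of TPM + 1, KO over control, for each of the 47 genes (x axis, ordered by the value under M2) under M1 (circles), under M2 (squares) and without stimulation (triangles), with standard errors from limma. The M2 values lie below 0 for most genes, with Usp18 lowest at -0.81. Trim25 is low under M1 and Dhx58 is high without stimulation.

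Among the sensors, all 8 rose under M1, by 2.73 to 8.84 on the log2 scale in KO and 3.24 to 8.72 in control cells. Ifi205, a DNA-binding protein of the p200 family, was among the genes nearest to 0 before stimulation. It stood at 623, 631 and 620.1 TPM in KO and 570.3, 574 and 552 TPM in control M1 libraries, against 0.20, 0.24 and 0.70 TPM in KO and 0.31, 0.35 and 0.38 TPM in control M0 libraries. The p200 genes Ifi203, Ifi204 and Ifi205 lie together on chromosome 1 and resemble each other, so how reads were shared among them is uncertain.

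Zbp1, a sensor of Z-form nucleic acid that can start necroptosis, was the gene that rose most under M2. It was at 8.86, 7.69 and 8.66 TPM in KO and 6.17, 7.15 and 6.74 TPM in control M2 libraries, against 1.58, 1.77 and 1.47 TPM in KO and 1.73, 1.84 and 2.72 TPM in control M0 libraries. The M2 libraries lay above the M0 libraries of the same line, with log2 fold changes of 1.85 ± 0.09 in KO and 1.32 ± 0.09 in control cells (SE; limma adjusted p = 3.56e-13 and 8.64e-11). Under M1 it averaged 401 ± 4.69 TPM in KO and 381 ± 12.7 TPM in control cells. It was called higher in KO M2 cells (0.29 ± 0.09, adjusted p = 0.0159), a call that was lost without control M2 libraries 1 and 2, and without KO M2 library 1 or 3.

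Dhx58, which encodes LGP2, a helicase that tunes the RNA sensors RIG-I and MDA5, was the gene most raised in unstimulated KO cells. Its level was 20.2, 24.4 and 23.7 TPM in KO M0 and 15.5, 14.8 and 14.9 TPM in control M0 libraries. Every KO library lay above every control library, and the log2 fold change was 0.56 ± 0.06 (adjusted p = 6.63e-07). After stimulation the lines came closer, at 155, 162 and 150.3 TPM in KO and 148, 152 and 152 TPM in control M1 libraries, with overlap and a value of 0.05 ± 0.06 (adjusted p = 0.544). The rise of Dhx58 under M1 was thus smaller in KO cells, 2.73 against 3.24, a difference of -0.51 ± 0.08 (adjusted p = 8.42e-05).

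Ddx60, a helicase linked to RIG-I signalling, fell in KO M1 cells to 27.8, 28.8 and 27.2 TPM, against 38.2, 40.8 and 36.9 TPM in control M1 libraries. No libraries overlapped, and the log2 fold change was -0.45 ± 0.07 (adjusted p = 3.67e-05). As a ratio of mean TPM, KO cells held 72.3%, 73.5% and 73.1% of the control level under M1, M2 and M0. Its M2 and M0 libraries were at most at 0.48 TPM, where the scale of TPM + 1 flattens such ratios. The smaller M1 response of Ddx60 in KO cells was not called with a pseudocount of 0.1 TPM. Ifi203 was the other sensor called lower in KO M1 cells, at -0.29. The sensors of viral RNA themselves, Ddx58 (RIG-I) and Ifih1 (MDA5), averaged 181 ± 1.57 and 199 ± 2.14 TPM in KO M1 cells and 201 ± 0.379 and 221 ± 3.48 TPM in control M1 cells. Their KO libraries lay below their control libraries, but with values of -0.15 ± 0.07 and -0.15 ± 0.06 neither was called (adjusted p = 0.0646 and 0.0632), though both were called in a fit of the M1 libraries alone. Ddx58 was called lower in KO M2 cells (-0.29), a call lost without control M2 libraries 1 and 2.

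The 3 transcription factors differed from each other. Irf7, which drives interferon alpha genes and amplifies the response, rose under M1 by 6.74 in KO and 6.74 in control cells, to 2564, 2504 and 2589 TPM in KO M1 and 2253, 2238 and 2239 TPM in control M1 libraries. The KO M1 libraries were all higher, but the log2 fold change of 0.19 ± 0.10 was not called in the fit of all 18 libraries (adjusted p = 0.147). It was called with trimmed-mean scaling, at 0.24 (adjusted p = 0.0481), and in a fit of the M1 libraries alone (adjusted p = 1.67e-05).

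Under M2 the picture of Irf7 was the opposite. KO M2 libraries stood at 9.67, 9.77 and 11.9 TPM and control M2 libraries at 16.3, 20.2 and 16.7 TPM, with KO M0 libraries at 18.8, 25.4 and 25.3 TPM and control M0 libraries at 21, 19.1 and 20 TPM. The KO M2 libraries lay below all others, and KO over control under M2 was -0.71 ± 0.10 (adjusted p = 8.05e-05). The response to M2 was -1.07 in KO and -0.17 in control cells, a difference of -0.90 ± 0.15 (adjusted p = 0.000601). Against control M2 library 3 alone the KO effect was -0.64.

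Stat2, a STAT protein of the type I interferon pathway, was at 467, 459 and 467 TPM in KO M1 and 433, 425 and 419 TPM in control M1 libraries. Its small rise in KO cells, 0.13 ± 0.04, was called (adjusted p = 0.0107) and the libraries did not overlap. It also rose under M2, by 0.51 in KO and 0.58 in control cells. Irf9, the DNA-binding partner of STAT2, had the smallest M1 response of the 47, with 87.2 ± 1.93 TPM in KO and 91.4 ± 2.11 TPM in control M1 cells, against 34, 40.9 and 42 TPM in KO M0 and 31.5, 35 and 34.3 TPM in control M0 libraries. Its KO effect was 0.20 without stimulation (adjusted p = 0.0178), with overlapping libraries, and -0.25 under M2 (adjusted p = 0.00339). The first call was lost in a fit of the M0 libraries alone (adjusted p = 0.0924) and when control M0 library 1, KO M0 library 2 or KO M0 library 3 was left out (adjusted p = 0.087 to 0.117), and the second without control M2 libraries 1 and 2 (adjusted p = 0.0987).

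In the ISG15 system, Isg15, a ubiquitin-like modifier that is coupled to viral and host proteins, was the second most abundant gene of the 47 under M1. It stood at 3776, 3760.4 and 3784 TPM in KO M1 and 3888, 3862 and 3836 TPM in control M1 libraries, against 9.05, 12.4 and 9.78 TPM in KO M0 and 13.7, 11.7 and 9.51 TPM in control M0 libraries. KO M1 libraries lay just below control M1 libraries, but the KO effect under M1, -0.03 ± 0.20, was not called (adjusted p = 0.911). Under M2 it was at 3.67, 6.67 and 5.18 TPM in KO and 8.26, 11 and 6.33 TPM in control libraries, which overlapped, and was called lower (-0.63 ± 0.20, adjusted p = 0.0292). This call was lost without control M2 libraries 1 and 2, at -0.28 (adjusted p = 0.512), and it was also lost in a fit of the M2 libraries alone (adjusted p = 0.1).

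Usp18, the protease that removes ISG15 and restrains the type I interferon receptor, had the largest called fall in KO M2 cells on the log2 scale of TPM + 1. Its level was 8.46, 8.21 and 8.79 TPM in KO M2 and 15.3, 15.6 and 16.2 TPM in control M2 libraries. The 2 sets were far apart, KO cells holding 54.1% of the control level (as a ratio of TPM others were lower, among them Mx2 at 44.4% and Rtp4 at 41.7%, both under 4 TPM), with a log2 fold change of -0.81 ± 0.06 (adjusted p = 1.03e-08). Unstimulated libraries overlapped, at 9.39, 12.2 and 10.6 TPM in KO and 10.4, 11.9 and 12 TPM in control cells. The M2 response of Usp18 was therefore -0.30 on the log2 scale in KO cells and 0.43 in control cells, called in opposite directions, with a difference of -0.73 ± 0.09 (adjusted p = 1.38e-05). Control M2 library 3, which held little of the M1 trace, had the highest Usp18 value of the group, and against it alone the KO effect was -0.86. Under M1, Usp18 was at 975, 944 and 955 TPM in KO and 1169, 1128 and 1172 TPM in control libraries, with no overlap (-0.27 ± 0.06, adjusted p = 0.00154).

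Trim25, a ubiquitin ligase that acts on RIG-I, fell in KO cells under M1. It was at 300.2, 295 and 296 TPM in KO M1 and 415, 411 and 404 TPM in control M1 libraries, against 74.4 ± 1.66 TPM in KO M0 and 70.9 ± 1.06 TPM in control M0 cells. The M1 libraries did not overlap between lines, and the log2 fold change was -0.46 ± 0.04 (adjusted p = 4.25e-08). The rise under M1 was 1.98 in KO and 2.52 in control cells, a difference of -0.53 ± 0.06 (adjusted p = 1.93e-06). Under M2 it was called higher in KO cells (0.14), a call lost without control M2 libraries 1 and 2. Herc6, the mouse ligase for ISG15, was called lower in KO M2 cells (-0.61 ± 0.06, adjusted p = 4.48e-07) and not under M1 (0.02).

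**Figure D3:**
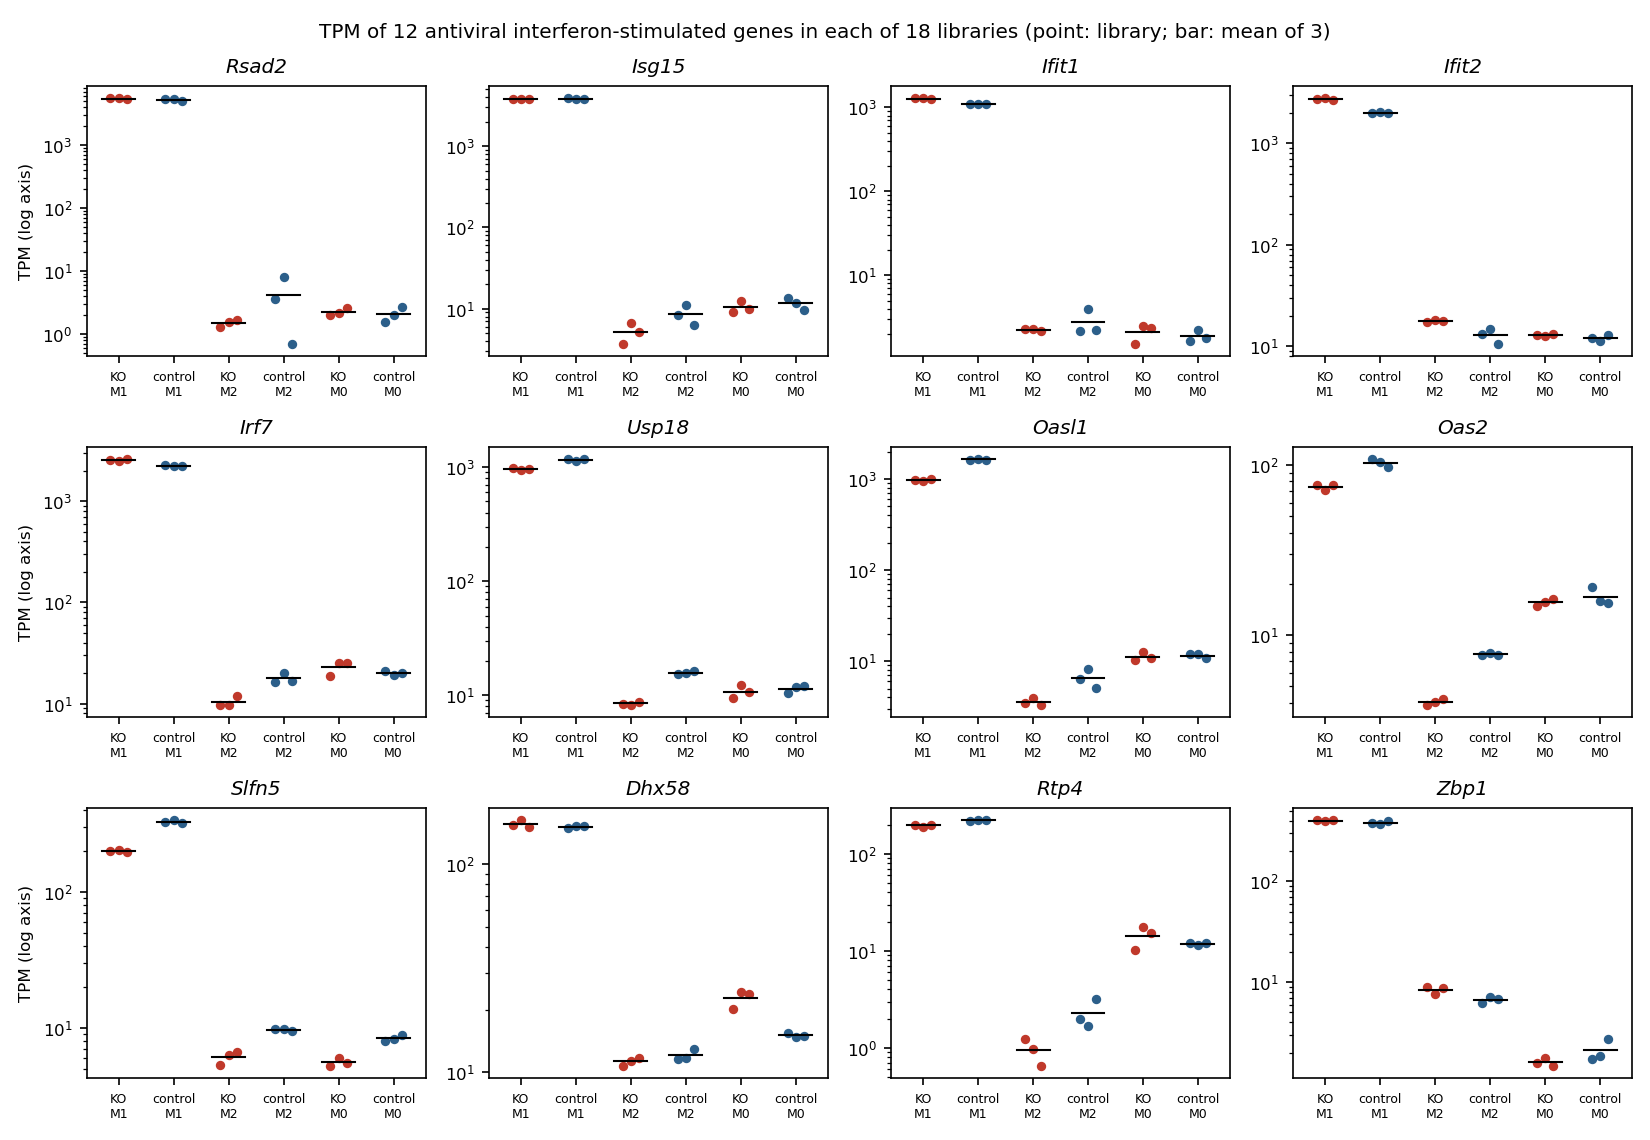
TPM on log axes of 12 of the genes in each of the 18 libraries (points), with the mean of 3 as a bar, KO groups in red left of control groups in blue and M1, M2 and M0 from left to right. Oasl1, Slfn5, Oas2 and Usp18 have lower red than blue points under M1 and under M2, Rsad2 scatters between 0.69 and 8.01 TPM in control M2 libraries, and Zbp1 has the largest rise of M2 over M0.

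The OAS enzymes make a short adenylate chain that activates RNase L, and of the 9 genes in their group, with the kinase Eif2ak2 (PKR), the editing enzyme Adar and the exonuclease Isg20, 7 were called lower in KO M2 cells, or 77.8% against 18.3% of all tested genes. Without control M2 libraries 1 and 2, 5 were, Oas3 and Adar being lost. In KO M1 cells 4 were called lower, or 44.4% against 33.4%, and none was called higher in either. Oasl1, an OAS-like protein without synthetase activity that in mice holds back Irf7 translation, had the largest KO effect under M1. It stood at 964, 944 and 1003 TPM in KO M1 and 1637, 1647 and 1632 TPM in control M1 libraries. KO cells held 59.2% of the control level with no overlap, a log2 fold change of -0.76 ± 0.11 (adjusted p = 2.22e-05). M0 libraries overlapped, at 11.3 ± 1.25 TPM in KO and 11.5 ± 0.636 TPM in control cells, and the difference in M1 response was -0.72 ± 0.15 (adjusted p = 0.0016).

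Under M2, Oasl1 was at 3.48, 3.92 and 3.3 TPM in KO and 6.36, 8.25 and 5.11 TPM in control libraries, again without overlap (-0.71 ± 0.11, adjusted p = 0.000107). Control M2 library 2, with the largest M1 trace, was the highest, and against library 3 alone the effect was -0.42. Its neighbour on chromosome 5, Oasl2, was called lower in KO M1 cells (-0.32) and had 207 ± 2.71 TPM in KO and 259 ± 6.82 TPM in control M1 cells.

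Oas2 fell in KO cells under both stimulations. It was at 3.88, 4.03 and 4.19 TPM in KO M2 and 7.64, 7.84 and 7.66 TPM in control M2 libraries, and at 76.7, 71 and 75.8 TPM in KO M1 and 108, 104 and 97.2 TPM in control M1 libraries. No libraries overlapped in either condition, and the log2 fold changes were -0.79 ± 0.07 under M2 and -0.46 ± 0.07 under M1 (adjusted p = 1.71e-08 and 8e-06). Against control M2 library 3 alone the M2 value was -0.78. M0 libraries, at 14.8, 15.6 and 16.2 TPM in KO and 19.1, 15.9 and 15.3 TPM in control cells, overlapped. M2 conditions lowered Oas2 in both lines, with log2 fold changes of -1.72 in KO and -1.03 in control cells, and the difference was -0.69 ± 0.09 (adjusted p = 3e-05).

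Oas3 had one of the largest falls under M2, to 3.53, 4.81 and 5.35 TPM in KO and 6.27, 6.85 and 5.78 TPM in control libraries, against 22.6, 27.9 and 25.9 TPM in KO M0 and 23.6, 22.5 and 22.4 TPM in control M0 libraries. All M2 libraries lay below all M0 libraries, with log2 fold changes of -2.26 ± 0.09 in KO and -1.71 ± 0.09 in control cells (adjusted p = 1.88e-13 and 1.5e-11). Oas1a was at 78.6, 71.5 and 76.9 TPM in KO and 101, 102 and 98.5 TPM in control M2 libraries, apart from each other (-0.40 ± 0.04, adjusted p = 7e-07). Under M1 it was at 589 ± 8.31 TPM in KO and 624 ± 15.5 TPM in control cells and was not called (-0.08, adjusted p = 0.127).

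Oas1g, the close copy of Oas1a, was called lower in KO cells in all 3 conditions. Its levels were 263, 264 and 274 TPM in KO and 309.8, 315 and 315 TPM in control M1 libraries, 54.6, 54.8 and 55.8 TPM in KO and 73.9, 68.8 and 69.5 TPM in control M2 libraries, and 56.8, 65.4 and 58.1 TPM in KO and 70, 68.2 and 67.3 TPM in control M0 libraries. The lines did not overlap in any condition, with log2 fold changes of -0.23, -0.35 and -0.19 under M1, M2 and M0 (adjusted p = 0.000162, 2.97e-06 and 0.00344). Whether reads were shared between Oas1g and Oas1a was not tested, so which of the 2 copies a difference belongs to is uncertain.

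The IFIT proteins bind viral RNA that lacks host cap marks. Ifit1, Ifit2 and Ifit3 lie within 99 kb on chromosome 19 and rose together under M1. Ifit3 stood at 927, 926 and 892 TPM in KO M1 and 868, 887 and 857 TPM in control M1 libraries, against 0.56, 1.21 and 1.26 TPM in KO M0 and 1.21, 0.80 and 1.22 TPM in control M0 libraries. Ifit1 stood at 1278, 1285 and 1258 TPM in KO M1 and 1097, 1104 and 1098 TPM in control M1 libraries, against 2.14 ± 0.54 TPM in KO and 1.9 ± 0.31 TPM in control M0 cells. Both had KO M1 libraries above all control M1 libraries, yet the log2 fold changes of 0.07 ± 0.19 for Ifit3 and 0.21 ± 0.14 for Ifit1 were not called in the fit of all libraries (adjusted p = 0.779 and 0.241). In a fit of the M1 libraries alone both were called, Ifit1 with an adjusted p of 6.06e-06. The M2 response of Ifit1 in control cells, 0.35, was called (adjusted p = 0.0421) but not without control M2 libraries 1 and 2, at 0.17 (adjusted p = 0.33).

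Ifit2 was the exception in direction, being the gene most raised in KO cells under both stimulations. It was at 2721, 2771 and 2661 TPM in KO M1 and 1999.7, 2042 and 1967 TPM in control M1 libraries, and at 17.4, 18 and 17.8 TPM in KO M2 and 13.4, 14.8 and 10.6 TPM in control M2 libraries. No libraries overlapped in either condition, and both log2 fold changes were 0.44 (SE 0.07, limma; adjusted p = 8.15e-05 under M1 and 0.000187 under M2). M0 libraries averaged 13 ± 0.326 TPM in KO and 12.1 ± 0.766 TPM in control cells, and the difference between lines in the M1 response was 0.35 ± 0.11 (adjusted p = 0.015).

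The Mx proteins are dynamin-like GTPases that trap viral nucleoproteins. Mx1 stood at 515, 513 and 517 TPM in KO M1 and 528, 521 and 493 TPM in control M1 libraries, and at or below 0.49 TPM in every M0 library, and its M1 libraries overlapped between lines (0.00, adjusted p = 0.992). Mx2 was at 3.28, 3.14 and 3.71 TPM in KO M0 and 2.51, 2.2 and 2.4 TPM in control M0 libraries, and at 309, 306 and 309.7 TPM in KO M1 and 351, 346 and 341 TPM in control M1 libraries. The KO line was thus above the control line before stimulation (0.38 ± 0.06, adjusted p = 0.000202) and below it under M1 (-0.17 ± 0.06, adjusted p = 0.0346), without overlap in either. The call under M1 was lost with trimmed-mean scaling and when any 1 library of control M1 or KO M1 cells was left out. The difference in the M1 response was -0.54 ± 0.09 (adjusted p = 9.72e-05).

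Rsad2, which encodes viperin, an enzyme that makes an antiviral nucleotide, was the most abundant of the 47 genes under M1 and made up 15.5% of their sum in KO M1 cells. It stood at 5479, 5447 and 5252 TPM in KO M1 and 5291, 5257 and 4966 TPM in control M1 libraries, against 1.99, 2.14 and 2.54 TPM in KO M0 and 1.53, 1.98 and 2.66 TPM in control M0 libraries. The M1 rise was 10.71 ± 0.42 in KO and 10.74 ± 0.42 in control cells on the log2 scale (adjusted p = 1.09e-11 and 1.12e-11). The lines overlapped under M1, and the KO effect of 0.06 ± 0.42 was not called (adjusted p = 0.924).

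The M2 values of Rsad2 varied with the M1 trace of each library. They were 1.3, 1.54 and 1.64 TPM in KO M2 and 3.59, 8.01 and 0.69 TPM in control M2 libraries. A trace at the median of the 7 genes would amount to 4.24, 7.59 and 0.708 TPM of Rsad2 in the control M2 libraries. In the KO M2 libraries it would amount to 1.42, 2.24 and 1.87 TPM. It thus exceeded the measured value in all KO M2 libraries and in control M2 libraries 1 and 3. The KO effect under M2 was -0.73 ± 0.42 and was not called (adjusted p = 0.214), and against control M2 library 3 alone, at 0.69 TPM, it was 0.56, the opposite direction. No direction can therefore be given for Rsad2 under M2. Cmpk2, its neighbour on chromosome 12 and the kinase that supplies nucleotide for viperin, stood at 1704, 1669 and 1662 TPM in KO M1 and 1739, 1686 and 1653 TPM in control M1 libraries, which overlapped (-0.01). Its M2 call in KO cells (-0.67, adjusted p = 0.0324) was likewise lost without those libraries.

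**Figure D4:**
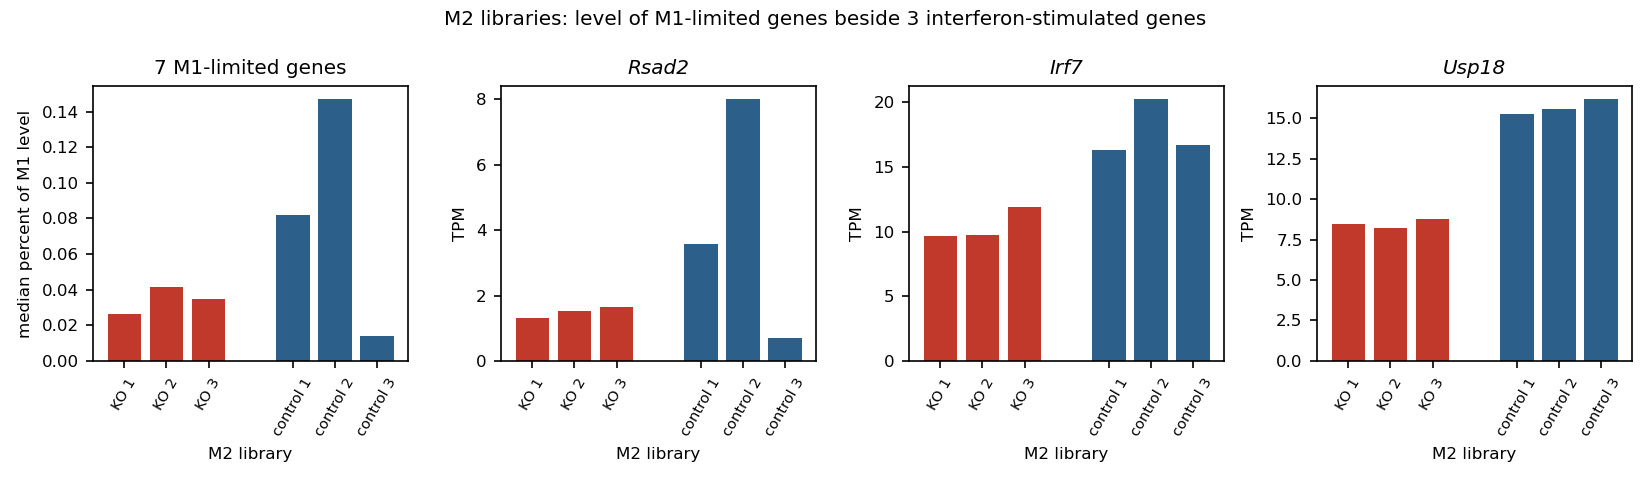
Bars for each of the 6 M2 libraries, KO left of control: the median level of 7 M1-limited genes in percent of their M1 level, and TPM of Rsad2, Irf7 and Usp18. Rsad2 is highest in control libraries 1 and 2, at 3.59 and 8.01 TPM, where the M1-limited genes are also highest, whereas Usp18 is near 8.5 TPM in all KO and above 15 TPM in all control libraries.

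Among the ADP-ribosylation genes, Parp14, an enzyme that modifies proteins with ADP-ribose, fell in KO M1 cells to 367, 367 and 354 TPM, against 494, 506 and 469.8 TPM in control M1 libraries. The sets were apart (-0.43 ± 0.07, adjusted p = 3.63e-05), and the M1 rise was 4.22 in KO and 4.84 in control cells, a difference of -0.62 ± 0.10 (adjusted p = 6.94e-05). Parp9 was called lower as well (-0.20), whereas Dtx3l, the ubiquitin ligase that pairs with it and lies beside it on chromosome 16, was not (0.02, adjusted p = 0.851). Parp9 and Dtx3l rose under M2 in both lines, by 0.53 and 0.25 in KO cells and by 0.57 and 0.35 in control cells. Bst2, or tetherin, which holds budding virus at the cell surface, averaged 1596 ± 8.44 TPM in KO and 1861 ± 19.8 TPM in control M1 cells (-0.22 ± 0.04, adjusted p = 6.15e-05) and 81.2 ± 2.2 TPM in KO and 115 ± 5.47 TPM in control M2 cells (-0.50 ± 0.04, adjusted p = 5.19e-09).

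Of the 12 remaining genes, 8 were called lower in KO M2 cells, or 66.7% against 18.3% of all tested genes, and 7 without control M2 libraries 1 and 2. In KO M1 cells 4 were, or 33.3% against 33.4%, which is the background share. Slfn5, a Schlafen protein, was low in the KO line in every condition. It stood at 200.3, 202 and 194 TPM in KO and 325, 334 and 316 TPM in control M1 libraries, at 5.34, 6.3 and 6.68 TPM in KO and 9.82, 9.87 and 9.47 TPM in control M2 libraries, and at 5.27, 6.04 and 5.55 TPM in KO and 8.03, 8.31 and 8.83 TPM in control M0 libraries. The lines never overlapped, and KO cells held 61.2%, 62.8% and 67.0% of the control level under M1, M2 and M0. The log2 fold changes were -0.71 ± 0.06, -0.60 ± 0.06 and -0.51 ± 0.06 (adjusted p = 1.15e-08, 3.23e-07 and 3.86e-06), and the M1 response did not differ past the threshold (-0.20 ± 0.09, adjusted p = 0.0757).

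Rtp4 and Ifi44 had the largest falls under M2 on the log2 scale of TPM + 1. As a ratio of mean TPM in KO cells, Rtp4 was at 0.0668, Mx2 at 0.106 and Ifi44 at 0.132 of the M0 level. Ifi44 was at 3.37, 3.45 and 3.5 TPM in KO M2 and 5.26, 5.56 and 5.12 TPM in control M2 libraries, against 20.8, 29.8 and 27.6 TPM in KO M0 and 19.8, 21.4 and 20.3 TPM in control M0 libraries. The log2 fold change was -2.59 ± 0.08 in KO and -1.77 ± 0.08 in control cells, a difference of -0.83 ± 0.11 (adjusted p = 6.33e-05). It was called higher in KO M0 cells (0.32, adjusted p = 0.00862), with KO library 1 inside the control range, and not without KO M0 library 2, at 0.22 (adjusted p = 0.0514), or in a fit of the M0 libraries alone (adjusted p = 0.1). Rtp4, a receptor transporter protein, was at 1.24, 0.97 and 0.65 TPM in KO M2 and 1.98, 1.69 and 3.19 TPM in control M2 libraries, against 10.2, 17.4 and 15.2 TPM in KO M0 and 11.9, 11.5 and 11.9 TPM in control M0 libraries. Its log2 fold change was -2.95 ± 0.17 in KO and -1.99 ± 0.17 in control cells, a difference of -0.96 ± 0.24 (adjusted p = 0.0163).

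Samd9l, an inhibitor of translation, was at 3.95, 5.8 and 5.71 TPM in KO M2 and 9.02, 8.73 and 8.78 TPM in control M2 libraries, with no overlap (-0.69 ± 0.08, adjusted p = 3.04e-06). Its M0 level was 26.6 ± 1.1 TPM in KO and 30.4 ± 0.345 TPM in control cells, where KO libraries also lay below control libraries, and it fell under M2 in both lines (-2.18 and -1.67). Epsti1 also fell under M2, to 2.73, 2.76 and 2.89 TPM in KO and 3.88, 3.65 and 3.74 TPM in control libraries, against 10.6 ± 1.48 TPM in KO M0 and 12.1 ± 0.60 TPM in control M0 cells. Tor3a, a torsin ATPase of the endoplasmic reticulum, rose under M2 in both lines, by 0.62 in KO and 0.48 in control cells. In the fit of all libraries, 11 of the 47 genes were not called between the lines in any condition. They were Dtx3l, Ifi204, Ifi205, Ifi35, Ifih1, Ifit1, Ifit3, Isg20, Mx1, Rsad2 and Xaf1. Of these, Ifih1, Ifi205, Ifit1, Ifit3, Isg20 and Xaf1 were called in a fit of the M1 libraries alone. Under M2, Ifi35, Mx1, Rsad2 and Xaf1 were called when control M2 library 3, with the least M1 trace of its group, was left out.

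The difference between the lines in their response was tested for each gene. For M1, 15 of the 47 responses were called smaller in KO cells and 1, that of Ifit2, larger, where 23.9% of all tested genes were called lower and 12.1% higher. Of the 47, 31.9% were thus called lower. With trimmed-mean scaling 13 were called lower and 3 higher, and with median-ratio scaling 12 and 3. The shares of all tested genes called in those fits are not given here, so the M1 count does not set the list apart. For M2, 23 responses, or 48.9%, were called lower in KO cells, against 7.05% of all tested genes, and 2, those of Ifit2 and Zbp1, higher, against 7.06%. Without control M2 libraries 1 and 2, 14 were called lower and 2 higher, with the call of Zbp1 lost and one of Ifi204 gained. The call of Ifit2 was kept there, but was lost with no variance trend, with no filter, in a fit of the compared groups alone and when single libraries of several groups were left out.

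Genes upstream of the 47 were followed with a list of 41 interferon pathway genes that are not members, of which 33 were tested. In KO M1 cells 17 of the 33 were called higher, 7 lower and 9 were not called, so that 51.5% were higher and 21.2% lower, against 16.9% and 33.4% of all tested genes. In KO M2 cells 11 were higher and 5 lower, or 33.3% and 15.2%, against 12.7% and 18.3% of all. Ifnb1, interferon beta, was the one ligand of 8 that passed the filter. It stood at 4.39, 4.09 and 5.3 TPM in KO M1 and 11.9, 8.22 and 11.2 TPM in control M1 libraries and was listed at 0 in all M2 and control M0 libraries and in KO M0 libraries 1 and 2, with 0.44 TPM in KO M0 library 3. KO M1 cells held 44.0% of the control level, with no overlap (-1.02 ± 0.14, adjusted p = 3.35e-06). Ifng was listed at 0 in every library.

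The receptor genes went the other way. All 5 tested receptor genes were called higher in KO M1 cells, against 16.9% of all genes. Ifnar1, a chain of the type I interferon receptor, was at 41.2, 43.3 and 41.3 TPM in KO M1 and 30.1, 30.6 and 29.8 TPM in control M1 libraries (0.46 ± 0.04, adjusted p = 3.28e-08). Of the 13 sensor and adaptor genes on the list, 6, or 46.2% against 33.4% of all genes, were called lower in KO M1 cells, among them Tlr4, the LPS receptor (-0.51), and Mavs, the adaptor of RIG-I and MDA5 (-0.38), and 1, Tlr9, was called higher (0.44).

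Socs3, an inhibitor of cytokine receptors, was higher in the KO line in every condition. It stood at 1195, 1178 and 1191 TPM in KO and 823, 779 and 771 TPM in control M1 libraries, at 362, 382 and 372 TPM in KO and 177, 180.1 and 186 TPM in control M2 libraries, and at 28.6, 27.9 and 33.5 TPM in KO and 15.4, 14.4 and 13.4 TPM in control M0 libraries. The lines did not overlap in any of them (0.59, 1.03 and 1.01; adjusted p = 3.4e-08, 2.64e-11 and 5.32e-11). Socs1, which restrains JAK kinases downstream of interferon gamma, averaged 56.5 ± 3.93 TPM in KO and 47.5 ± 5.78 TPM in control M1 cells (0.25, adjusted p = 0.0403). Whether these genes have a part in the levels of the 47 was not tested.

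**Figure D5:**
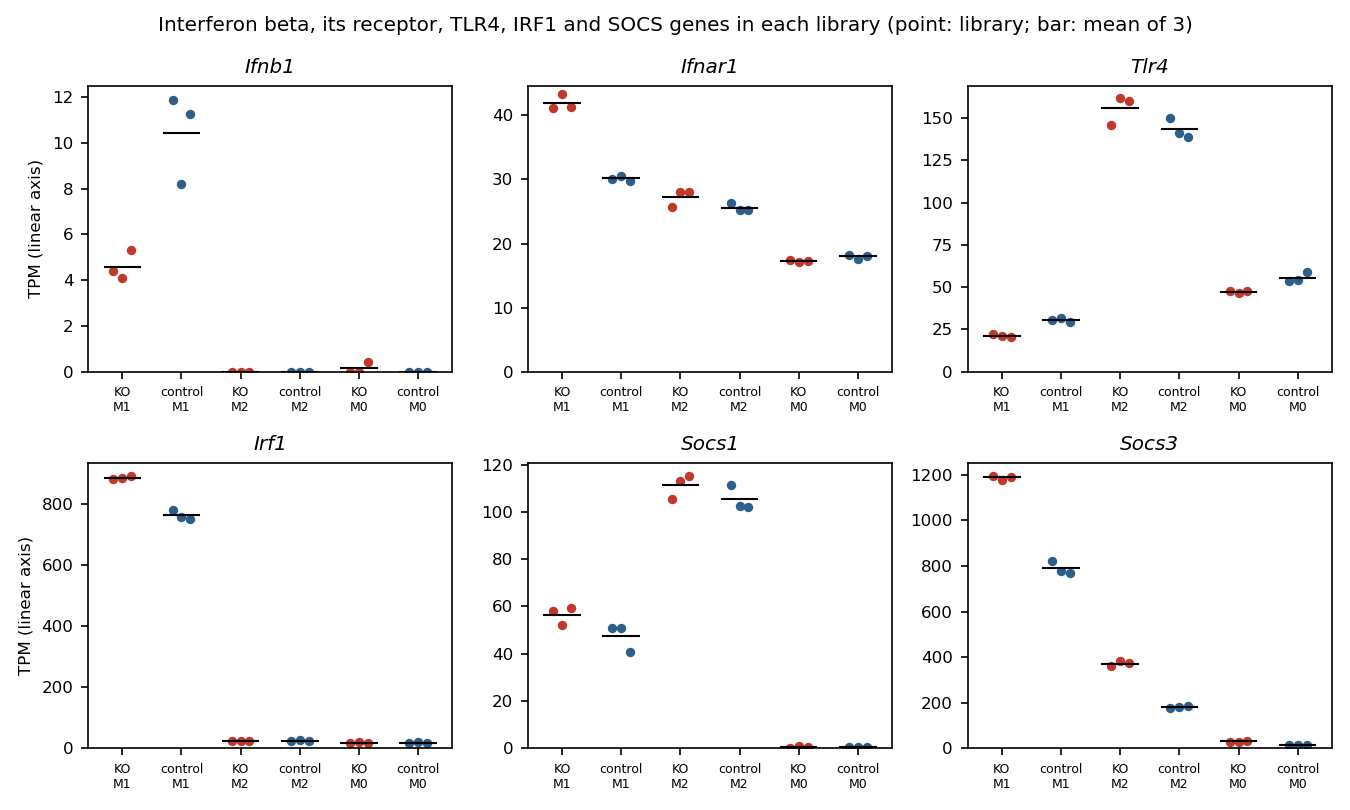
TPM on linear axes of Ifnb1, Ifnar1, Tlr4, Irf1, Socs1 and Socs3 in each of the 18 libraries (points) with the mean of 3 as a bar, KO groups in red left of control groups in blue. Under M1, Ifnb1 is lower in KO libraries, at 4.09 to 5.30 TPM against 8.22 to 11.89 TPM in control libraries, and Ifnar1 and Socs3 are higher.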

How the data were processed

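The authors deposited gene-level TPM for 18 libraries, 3 in each of 6 groups, and the groups were taken from the labels. Per the submitters' processing notes, reads were trimmed with Trim Galore and the genome build was mm10. The aligner, quantifier, annotation and strand setting were not given in the sources used here. Depth is unknown, so no counting interval is given. TPM were tested as log2(TPM + 1), a scale that understates changes of low genes, with limma 3.58.1 in R 4.3.3 (trend, robust), on the 11548 genes with 1 TPM or more in at least 3 libraries. A gene was called at a two-sided Benjamini-Hochberg adjusted p under 0.05 over all of them, in 1 fit of all 18 libraries. The fit was tested on simulated data. The members, gene lists and tests were chosen with earlier results of these data known. Genes named with values in each library are the 6 called ones with the largest change in each response and each knockout effect, and the 4 largest in each genotype difference, at 5 TPM or more in the higher group, together with Rsad2, Ifit1, Isg15, Irf7, Stat2, Irf9, Usp18, Mx1 and Oas1a. Other genes named with values, such as Ddx58, Ifih1 and Bst2, were chosen after their values were seen. Alternatives were 2 scalings, no variance trend, other filters, a pseudocount of 0.1 TPM, a replicate block, fits of the compared groups alone and each library left out. No pair of libraries was identical, and Pearson correlations within groups were 0.994 to 0.997.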

Additional observations from a re-analysis of the deposited data

Results flagged for a closer look

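The lines differed in their responses by a test of the difference itself, in limma's fit with adjustment over all tested genes. For M1, this held for 16 of the 47 genes. Of the 47, 31.9% were called lower and 2.13% higher, against 23.9% and 12.1% of all tested genes, so this count does not set the list apart. The response in KO cells minus that in control cells was -0.72 for Oasl1, -0.62 for Parp14, -0.54 for Mx2, -0.53 for Trim25 and -0.27 for Irf9 on the log2 scale. The Irf9 call was lost with median-ratio scaling, at -0.20 (adjusted p = 0.0605), and without KO M0 library 3, at -0.22 (adjusted p = 0.0506). All 5 of these genes rose under M1 in both lines. For M2, the difference held for 25 of the 47 genes, with 48.9% called lower and 4.26% higher, against 7.05% and 7.06% of all tested genes. It was -0.96 for Rtp4, -0.90 for Irf7, -0.83 for Ifi44, -0.73 for Usp18, -0.45 for Irf9 and -0.35 for Oas1a. The M2 response of Usp18 was -0.30 in KO and 0.43 in control cells. The M2 response of Oas1a was not called in KO cells with trimmed-mean scaling, at -0.08 (adjusted p = 0.154), or in control cells when 1 control M2 library was left, at 0.15 (adjusted p = 0.0684).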

How the results depend on the processing

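All 47 genes stayed called higher under M1 in both lines under every alternative run. With each library left out in turn, the count called was 37 to 42 for the M2 response in KO cells, 33 to 36 for that in control cells, 16 to 17 for KO against control under M1, 26 to 30 under M2, 5 to 11 without stimulation, 14 to 24 for the M1 difference and 18 to 28 for the M2 difference. The count of 11, with 9 higher, came without KO M0 library 1. A fit of the compared groups alone called 33 genes between the lines under M1 (9 higher, 24 lower), against 18 in the fit of all libraries. The latter takes a shared spread per gene from all 6 groups, so scatter among M0 and M2 libraries also enters the M1 standard errors. The part of this in the counts was not tested. Chosen after the data were seen, leaving out control M2 libraries 1 and 2, so that 1 control M2 library remained and the other groups gave the spread, called 16 genes for the M2 difference (2 higher, 14 lower). The choice turned Rsad2 to -0.84 for the M2 response in control cells and to 0.56 for KO against control under M2. Subtracting the trace of M1 genes, also chosen after the data were seen, turned Rsad2 to -1.16 for the M2 response in control cells and to -0.39 for KO against control without stimulation. Values below 0 were set to 0 there, which held for Rsad2 in control M2 libraries 1 and 3, so -1.16 rests on a floor. For the -0.39, the trace subtracted was 0.0188% to 0.0334% in KO M0 and 0.00368% to 0.0188% in control M0 libraries. No direction of Rsad2 is drawn from either. Trimmed-mean and median-ratio scaling moved the median of all genes in the M1 responses to between 0.01 and 0.07. Both lost the KO M1 calls of Mx2 and Lgals3bp and gained calls of Irf7 and Isg20 as higher. Median-ratio scaling also gained Tor3a. Under M1, 4 were then called higher and 14 lower in KO cells with trimmed means, and 5 and 14 with median ratios. With a replicate block, 18 genes were called between the lines under M1, 29 under M2 and 6 without stimulation, and 18 and 23 for the M1 and M2 differences. Same-numbered libraries did not deviate together (correlations -0.14 to 0.12), and the labels state no pairing, so none was used in the main fit. With 3 libraries in a group, these correlations cannot tell whether same-numbered libraries shared a preparation. Depth is unknown, so what it limits cannot be given for genes near 0 TPM.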
